A study of Mus musculus with 9 samples.

Results

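The genes described here are 42 genes of glycolysis and of the transcriptional response to hypoxia, taken by gene symbol from a fixed list out of the 24067 genes of a table of RNA levels in the mouse mammary carcinoma cell line 4T1. They comprise 4 glucose or monocarboxylate transporters, 17 glycolytic enzymes including the lactate dehydrogenases, and 3 kinases called flux kinases here. These kinases are Pfkfb3 and Pfkfb4, which act on glycolysis, and Pdk1, which acts on the use of pyruvate. The rest are 7 hypoxia-inducible factor (HIF) subunits and their regulators, and 11 other HIF target genes. The level in each library is in FPKM, fragments per kilobase of transcript scaled to the mapped fragments of a library, so levels of different genes are compared per length. In all, 39 of the 42 genes reached 1 FPKM in at least 3 of the 9 libraries and were tested, among 10783 genes that did. Slc2a3, a neuronal-type glucose transporter, Slc16a3, a lactate exporter, and Epas1, the paralogue of Hif1a, stayed at or below 0.0428, 0.0488 and 0.101 FPKM and were not tested.

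The libraries carry a pair of crossed labels. By title, 3 libraries each came from clone 3, from clone 2 and from control. The clones are 4T1 lines stably transfected with a plasmid overexpressing the microRNA miR-204-5p and selected with Zeocin, and the labels give a level of the microRNA 525 times control in clone 3 and 150 times control in clone 2. The control cells are 4T1 that received a control plasmid. By code, each title has 1 library named C-26 (replicate 3), 1 named C-20 (replicate 2) and 1 named NTC (replicate 1), and the labels do not say what the codes stand for. The headers of the authors' deposited comparisons call NTC the control and C-20 and C-26 the test, matched here through group means. Nothing states why the titles and these headers name different controls. Each pairing of a title with a code occurs in a single library, each overexpressing line is a single clone, and nothing states that replicates came from separate cultures, so p-values measure the spread between these libraries, which may be technical. Clone and integration effects cannot be told apart from the microRNA. The poly(A)-selected libraries do not read the mature microRNA itself.

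Glycolysis splits glucose into pyruvate, and lactate dehydrogenase then reduces pyruvate to lactate, which monocarboxylate transporters carry out of the cell. HIF is a heterodimer whose alpha subunit is hydroxylated by the Egln prolyl hydroxylases when oxygen is present and is then marked for degradation by the ubiquitin ligase that contains the von Hippel-Lindau protein. When oxygen falls, or when that ligase is lost, the alpha subunit persists, pairs with Arnt and activates glycolytic genes together with genes for pH control, mitophagy, collagen modification and vascular signalling. Because the alpha subunit is controlled mainly as protein, levels of its RNA need not follow its activity. Mammary carcinoma lines, 4T1 among them, are known for high glycolytic flux also in the presence of oxygen.

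The overexpressed microRNA and its match in one member are shown first, because Vhl is the only one of the 42 genes with an 8mer site. RefSeq places the mature microRNA at chr19:22750610-22750631 on the plus strand of GRCm38.p6. The site lies at position 1213 of the 2064-nt 3′ UTR of Vhl. With the flanking bases shown it spans chr6:113630774-113630797 (GRCm38, plus strand). Tpi1, triosephosphate isomerase, has a 7mer site, which with its flanking bases spans chr6:124810725-124810747 on the minus strand. Capitals mark the seed, bases 2 to 8, in the microRNA and the matching letters in the sites, all written 5′ to 3′.
mmu-miR-204-5p: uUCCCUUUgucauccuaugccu
Vhl site: agtcaaggAAAGGGAAgcagaaag
Tpi1 site: ctacatgtAAGGGAAataaacac

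An 8mer site was present in 1 of 42 members, against 664 of the 10391 tested genes with an annotated 3′ UTR (6.39%). The untested Slc2a3 and Slc16a3 also held 7mer sites, and Hif1a held none. Vhl, which encodes the substrate receptor of the HIF ligase, had 9.25, 8.21 and 9.07 FPKM in clone 3, 11.8, 9.07 and 6.87 FPKM in clone 2 and 11.8, 7.29 and 8.39 FPKM in control (replicates 1, 2 and 3). All 3 groups overlapped, and the log2 difference between clone 3 and control was -0.02 (95% interval -0.51 to 0.47).

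HIF binds the letters ACGTG or GCGTG in DNA, so the start-site windows of 3 members whose levels are described below are shown with these letters in capitals on either strand (RefSeq, GRCm38.p6, 250 bases before to 50 after the start). Ldha encodes the main lactate dehydrogenase subunit, Hif1a the HIF alpha subunit and Car9 a cell-surface carbonic anhydrase that is a classical HIF target.
Ldha, chr7:46845554-46845853, plus strand: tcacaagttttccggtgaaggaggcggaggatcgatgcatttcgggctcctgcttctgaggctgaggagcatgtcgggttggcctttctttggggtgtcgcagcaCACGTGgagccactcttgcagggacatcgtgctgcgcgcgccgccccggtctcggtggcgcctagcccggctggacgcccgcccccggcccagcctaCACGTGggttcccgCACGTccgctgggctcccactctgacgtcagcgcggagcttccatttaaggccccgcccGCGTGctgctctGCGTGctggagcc
Hif1a, chr12:73907617-73907916, plus strand: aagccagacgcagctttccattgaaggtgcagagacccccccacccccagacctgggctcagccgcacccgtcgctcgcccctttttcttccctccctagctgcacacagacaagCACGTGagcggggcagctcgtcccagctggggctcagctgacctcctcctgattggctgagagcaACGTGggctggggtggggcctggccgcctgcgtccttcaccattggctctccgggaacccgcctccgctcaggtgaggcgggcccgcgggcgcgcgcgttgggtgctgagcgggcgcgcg
Car9, chr4:43506776-43507075, plus strand: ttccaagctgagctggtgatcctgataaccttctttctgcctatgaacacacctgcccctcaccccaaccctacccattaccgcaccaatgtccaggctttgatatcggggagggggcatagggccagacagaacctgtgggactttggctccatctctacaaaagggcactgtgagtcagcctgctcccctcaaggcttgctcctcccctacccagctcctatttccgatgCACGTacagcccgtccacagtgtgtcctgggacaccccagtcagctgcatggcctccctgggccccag

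Of the 37 members found in the RefSeq promoter table, ACGTG was present on either strand in 23 (62.2%), against 30.5% of the 8184 tested genes in that table. GCGTG was present in 25 members (67.6%), against 58.9% of those genes. Either motif was present in 33 members (89.2%), against 70.3%. A palindromic CACGTG counts as ACGTG on both strands, a gene with several windows counts once if any window matches, and a match describes letters and not binding.

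Across the 9 libraries the sum of FPKM over all genes was 439018.1 to 560091.9 and 14883 to 15261 genes were above 0 in clone 3, 15137 to 18283 in clone 2 and 15621 to 17567 in control. Of olfactory and vomeronasal receptor genes, which mark sensory neurons, 0.97 to 1.66% were above 0 in clone 3, 2.49 to 16.32% in clone 2 and 3.39 to 9.2% in control, and the part of this in the results was not tested. Fragment counts were not used here and the absolute depth is unknown. The smallest steps between low values give depths of 0.903 to 1.167 relative to the geometric mean of the libraries. The 10 epithelial marker genes were all expressed, with a summed level of 1393 to 1778 FPKM in clone 3, 991 to 1522 in clone 2 and 450 to 1289 in control. Fibroblast, endothelial and leukocyte lists summed to at most 8.1, 0.631 and 11.9 FPKM, nearly all of it from Pdgfra for the fibroblast list and from Cd68 for the leukocyte list, and Cd3e was listed at 0 in every library.

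The 42 genes covered a wide range of levels. The most abundant was Gapdh, at 1356 to 3489 FPKM, followed by Eno1 (791 to 1651 FPKM), Pkm (734 to 1651 FPKM) and Ldha (461 to 1207 FPKM). Gapdh was the highest in each of the 9 libraries, and the ranges of the other 3 overlap one another. The 17 enzymes together made up 1.67 to 2.09% of all FPKM in clone 3, 1.23 to 1.54% in clone 2 and 0.997 to 1.58% in control. One isoform dominated most steps: Aldoa held 99 to 99.7% of aldolase FPKM (Aldoa plus Aldoc), Ldha 95.9 to 98.8% of Ldha plus Ldhb, and Pfkl 69.4 to 84.5% of the 3 phosphofructokinase genes. The hexokinases were nearer to even, with Hk2 at 34.1 to 54.1% of Hk1 plus Hk2.

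**Figure D1:**
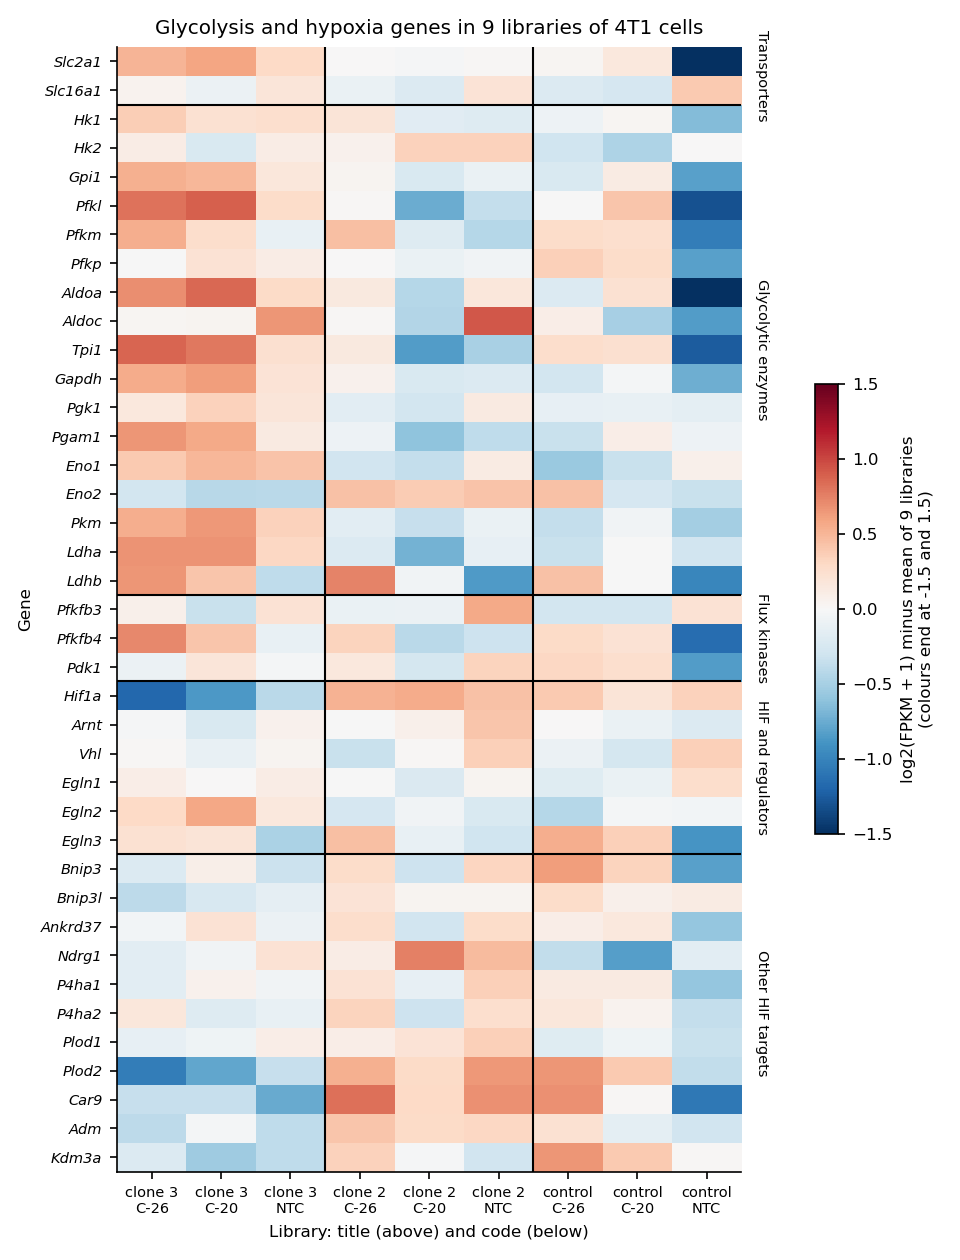
Each row is 1 of the 39 tested genes and each column 1 library, ordered by title and then code; colour gives log2(FPKM + 1) minus the gene's mean over 9 libraries. The control library coded NTC is low in most enzyme rows (53.8% of the 39 genes and 29.1% of all tested genes were lowest there), and Hif1a and Plod2 are low in the clone 3 columns.

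One library stood apart. The control replicate 1 library (code NTC) was the lowest of all 9 for 21 of the 39 tested genes (53.8%) and for 29.1% of all 10783, and the highest for 17.3% of all. Its median deviation was -0.37 log2 units over the 39 genes and -0.73 over the 17 enzymes, against -0.06 over all tested genes. Slc2a1, the main glucose transporter of these cells, was at 15.9 FPKM there and at 49.3 to 76.2 FPKM in the other 8 libraries. It also had the lowest summed epithelial marker level. What sets it apart was not tested.

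In clone 3 the most abundant glycolytic enzymes were higher, and Hif1a and a pair of HIF target genes were lower, than in control. Of 39 tested members 4 rose and 3 fell, 17.9% of the members against 20.6% of all tested genes (802 higher and 1418 lower of 10783). In bulk RNA, fewer cells with a transcript and less of it per cell cannot be told apart. The share of members called is thus near the background. All 4 that rose were enzymes: Gapdh, Eno1, Pkm and Ldha. With the authors' quantile-normalized values none of these 4 passed (log2 differences 0.42 to 0.53, adjusted p of 0.0781 to 0.1953 by limma), whereas Hif1a, Plod2 and Kdm3a did. The direction was shared more widely than the calls, since 16 of 17 enzymes had a positive log2 difference, with a median of 0.66 against 0.09 over all tested genes, of which 57.2% were positive. Without control replicate 1, 14 of 17 were positive with a median of 0.45, against 0.05 over all tested genes. The 11 other HIF targets had a median of -0.20, which was -0.30 without control replicate 1 and 0.09 without control replicate 3.

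Pkm, pyruvate kinase, had 1330, 1651 and 1529 FPKM in clone 3 and 734, 1007 and 819 FPKM in control. Its log2 difference was 0.82 ± 0.18 (SE; 1.77-fold), with an adjusted p of 0.0105 (limma, Benjamini-Hochberg). Gapdh, which oxidises glyceraldehyde phosphate, had 2596, 3489 and 3323 FPKM in clone 3 and 1356, 2203 and 1866 FPKM in control, a log2 difference of 0.81 ± 0.22 with an adjusted p of 0.0272 (limma, Benjamini-Hochberg). In both genes every clone 3 library was above every control library, as in 12 of the 39 members and 21.9% of all tested genes. Ldha had 935, 1201 and 1207 FPKM in clone 3 and 619, 753 and 597 FPKM in control, a log2 difference of 0.76 ± 0.20 with an adjusted p of 0.0266 (limma, Benjamini-Hochberg). Eno1, the main enolase, had 1563, 1651 and 1533 FPKM in clone 3 and 1231, 926 and 791 FPKM in control, a log2 difference of 0.71 ± 0.21 with an adjusted p of 0.0355 (limma, Benjamini-Hochberg). The groups did not overlap for these either. Several of these enzymes have near-identical processed pseudogenes, and how shared reads were assigned is uncertain.

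Aldoa, Pfkl, Tpi1 and Gpi1 had differences of similar or larger size without passing the test, with a wider spread in control than in clone 3. Those of Hk1 and Hk2 were smaller and did not pass either. Aldoa, the aldolase of muscle and tumours, had 650, 969 and 863 FPKM in clone 3 and 159, 625 and 462 FPKM in control (log2 difference 1.19 ± 0.43, adjusted p = 0.0763 by limma). Pfkl, the liver-type phosphofructokinase subunit, had 115, 178 and 168 FPKM in clone 3 and 37.8, 127 and 95 FPKM in control (0.96 ± 0.40, adjusted p = 0.1105 by limma). Tpi1 had 379, 553 and 586 FPKM in clone 3 and 134, 378 and 383 FPKM in control (0.88 ± 0.40, adjusted p = 0.1453 by limma). For all 3 the lowest control value is that of replicate 1, and for Pfkl and Tpi1 the groups overlap. Gpi1, glucose phosphate isomerase, had 145, 181 and 186 FPKM in clone 3 and 72.6, 139 and 109 FPKM in control (0.71 ± 0.23, adjusted p = 0.0525 by limma). Hk1, the constitutive hexokinase, had 39.0, 38.5 and 42.4 FPKM in clone 3 and 20.4, 33.3 and 30.9 FPKM in control (0.52 ± 0.20, adjusted p = 0.0949 by limma). Hk2, the hexokinase known as a HIF target, had 26.3, 20.5 and 26.2 FPKM in clone 3 and 24.1, 17.2 and 19.3 FPKM in control (0.26 ± 0.18, adjusted p = 0.3282 by limma). Only Hk2 of these 3 had overlapping groups. Without control replicate 1 the log2 difference was 0.60 for Aldoa, 0.45 for Pfkl, 0.38 for Tpi1, 0.46 for Gpi1, 0.31 for Hk1 and 0.38 for Hk2, and none of them passed.

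At the ends of the pathway the transporters did not pass the test. Slc2a1 had 61.7, 76.2 and 71.8 FPKM in clone 3 and 15.9, 56.1 and 51.1 FPKM in control, a log2 difference of 0.94 ± 0.38 (adjusted p = 0.1063 by limma), which was 0.37 without control replicate 1. Slc16a1, a proton-coupled lactate carrier, ranged from 59.0 to 71.4 FPKM in clone 3 and from 52.7 to 82.6 FPKM in control. Of the flux kinases, Pfkfb4 ranged from 3.85 to 7.66 FPKM in clone 3 and from 1.37 to 5.41 FPKM in control, and Pfkfb3 and Pdk1 had log2 differences of 0.10 and 0.11.

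Hif1a fell to 31.4, 22.5 and 17.8 FPKM in clone 3, against 53.4, 47.8 and 55.0 FPKM in control. The 3 clone 3 libraries lay below all other 6. The log2 difference was -1.12 ± 0.20 (95% interval -1.56 to -0.69; 2.18-fold lower), with an adjusted p of 0.0034 (limma, Benjamini-Hochberg). Plod2, a lysyl hydroxylase that modifies collagen, had 19.7, 14.4 and 11.8 FPKM in clone 3 and 19.4, 33.5 and 40.7 FPKM in control (-0.95 ± 0.27, adjusted p = 0.0341 by limma), and the groups overlap through control replicate 1. Kdm3a, a histone demethylase induced by HIF, had 9.34, 8.35 and 10.7 FPKM in clone 3 and 12.7, 16.7 and 20.4 FPKM in control (-0.73 ± 0.22, adjusted p = 0.0395 by limma), with no overlap. Every clone 3 library was below every control library in 3 of the 39 members and in 18.8% of all tested genes. Car9 did not pass, at 11.5, 15.7 and 15.6 FPKM in clone 3 and 9.08, 20.3 and 33.0 FPKM in control (-0.36 ± 0.37, adjusted p = 0.5154 by limma), but passed without control replicate 1 (-0.83, adjusted p = 0.0317 by limma). Without that library Plod2 was at -1.25 and Kdm3a at -0.90.

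Arnt, the partner subunit, and the prolyl hydroxylases Egln1 and Egln3 had log2 differences between -0.02 and 0.08. Egln2, the third prolyl hydroxylase, had 18.5, 25.0 and 20.5 FPKM in clone 3 and 15.9, 16.1 and 12 FPKM in control, without overlap (0.51 ± 0.18, adjusted p = 0.0645 by limma, and 0.0465 without control replicate 1). The other HIF targets, among them the mitophagy receptors Bnip3 and Bnip3l, Ankrd37, Ndrg1, P4ha1, P4ha2, Plod1 and Adm, had log2 differences between -0.41 and 0.46, and none passed the test.

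**Figure D2:**
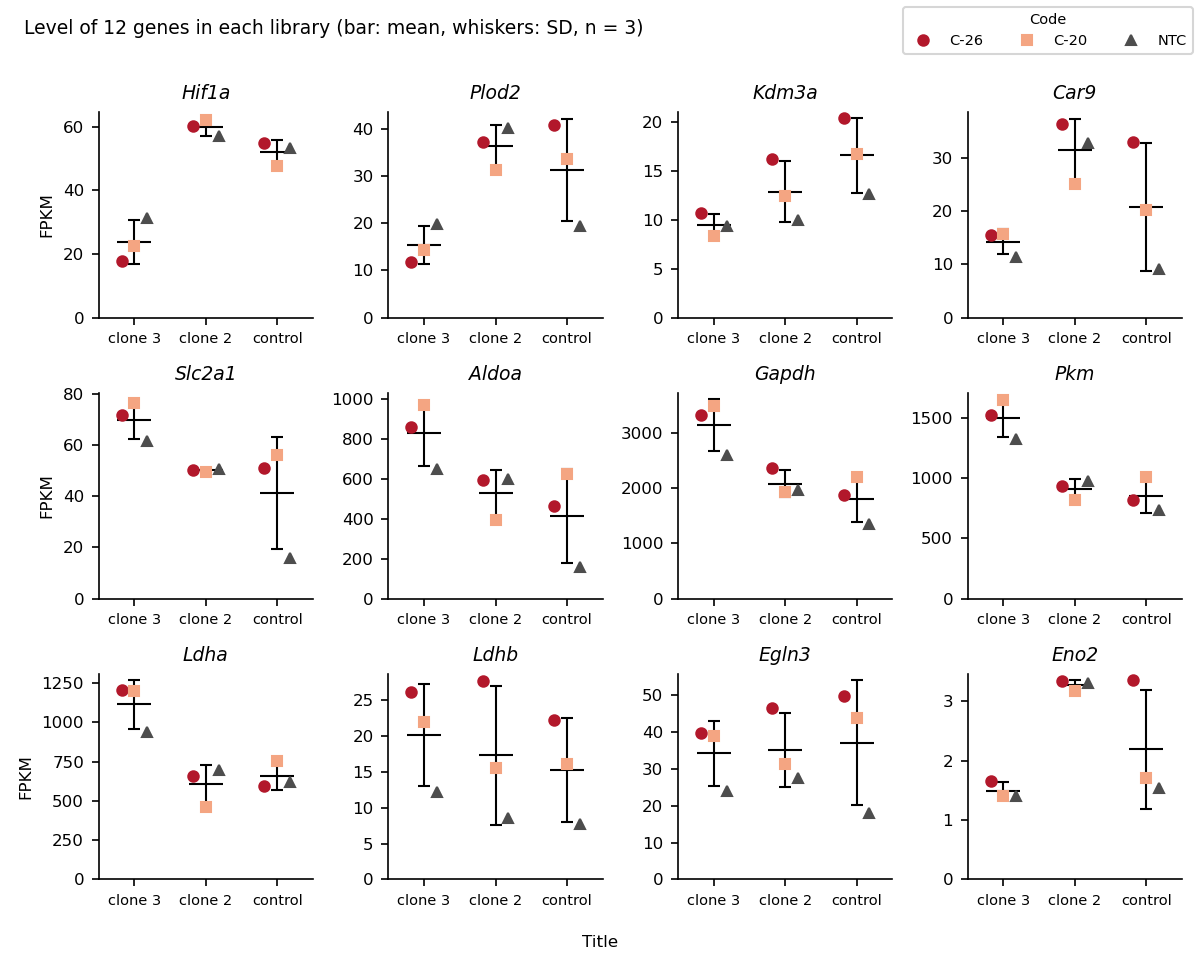
Each panel plots the FPKM of 1 gene in the 9 libraries, by title on the horizontal axis and with the code as symbol and colour; the bar is the mean and the whiskers the SD of 3 libraries. The Hif1a points of clone 3 (17.8 to 31.4 FPKM) lie below all others, and those of Gapdh, Pkm and Ldha above all others.

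These calls were lost when transcript composition was corrected for. Over all tested genes the median log2 difference between clone 3 and control was -1.03 in the lowest of 10 equal bins of GC content (median 40.2% GC) and 0.42 in the highest (59.9% GC). Hif1a has 41.3% GC, Plod2 43.0%, Kdm3a 45.5% and Ldha 51.5%, whereas Pkm has 57.7%, Eno1 57.4% and Gapdh 56.6%. Over 10 bins of transcript length the medians ran between 0.23 and -0.16. After each library was corrected for transcript length and GC content, none of the 39 members passed limma's test, against 7.94% of all tested genes. An unadjusted p below 0.05 was found for 7 of the 39 members and 2524 of 10713 tested genes. In corrections chosen after seeing the data, 0 members passed with GC content alone, where 801 of 10713 tested genes did. With length alone 7 of the 39 members and 2573 of 10713 tested genes passed. Length alone kept Hif1a, Plod2, Pkm, Gapdh and Ldha but not Eno1 or Kdm3a, and added Hk1 and Gpi1. The corrected log2 difference was -0.25 for Hif1a, -0.36 for Plod2, -0.42 for Kdm3a, 0.41 for Pkm, 0.40 for Gapdh, 0.29 for Eno1 and 0.51 for Ldha. All 7 kept their sign, and 16 of 17 enzymes stayed positive, with a median of 0.29 against 0.03 over all tested genes. A composition difference between clones and one between library preparations cannot be told apart here.

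**Figure D3:**
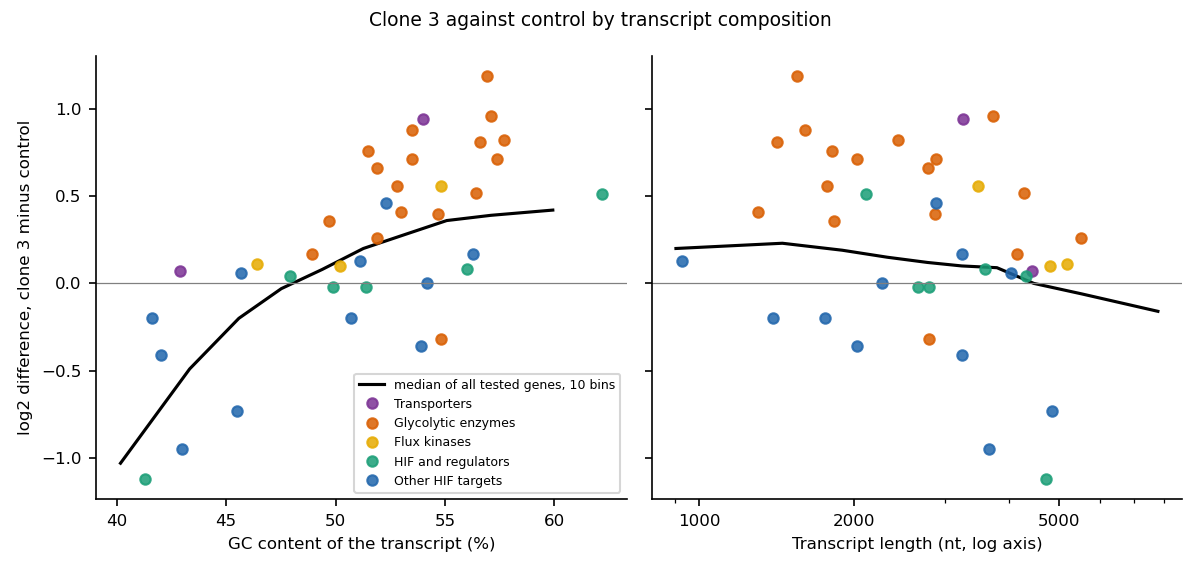
Each point is 1 tested gene of the set, with the log2 difference between clone 3 and control on the vertical axis and the GC content (left) or the length on a log axis (right) of its transcript; the line joins medians of all tested genes in 10 equal bins. The line runs from -1.03 to 0.42 over GC content, with Hif1a near its low end and most enzymes at or above it.

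**Figure D4:**
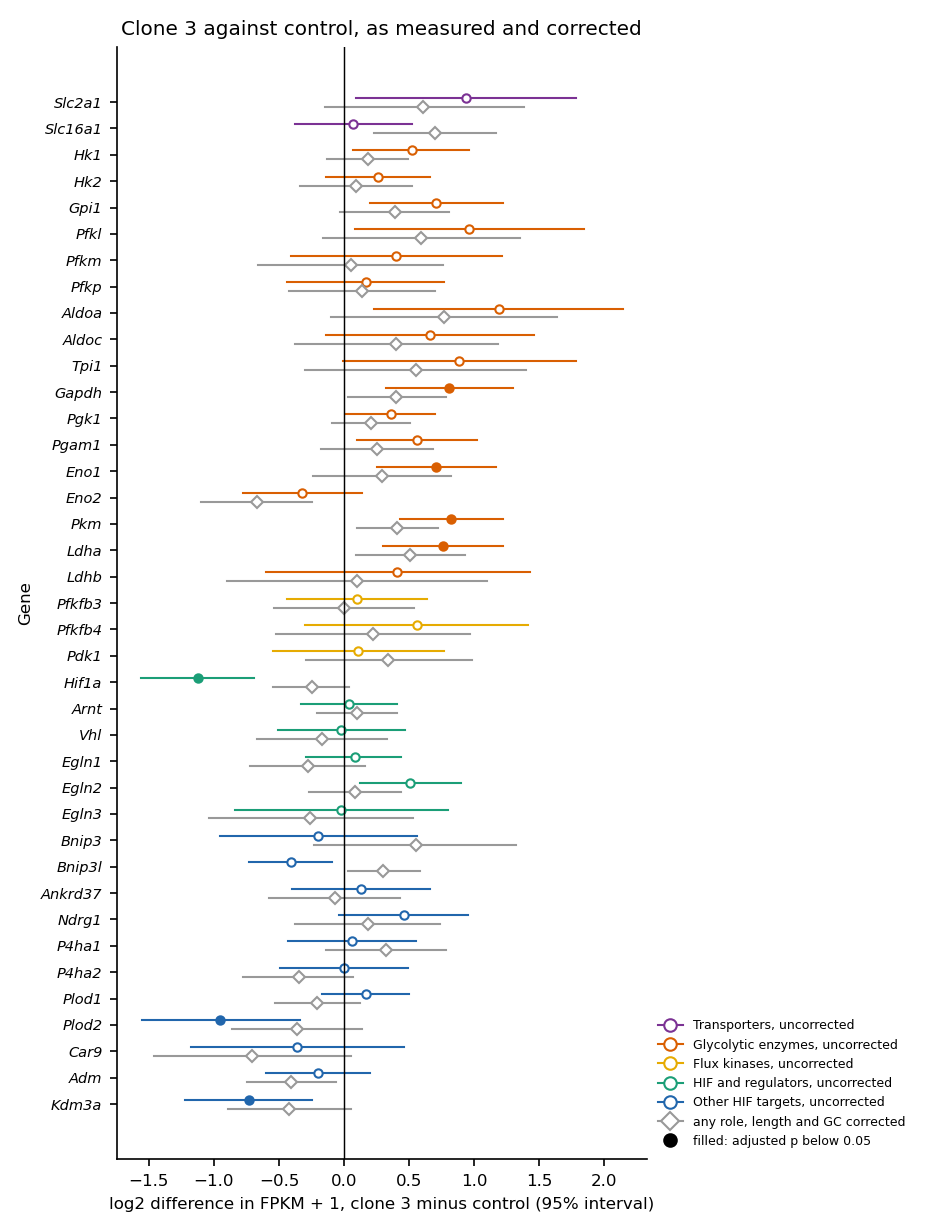
For each tested gene, the coloured circle gives the log2 difference between clone 3 and control and the grey diamond the same after correction for length and GC content, with 95% intervals; filled symbols passed limma's test at an adjusted p below 0.05. The 7 filled circles include Hif1a at -1.12, and no diamond is filled.

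Most of these calls were also lost with single libraries left out, at an adjusted p of 0.05 by limma. Calls over all tested genes fell as well, from 2220 to 1057 without clone 3 replicate 2, 1011 without clone 3 replicate 3 and 1364 without control replicate 3. They numbered 2147 without clone 3 replicate 1 and 2158 without control replicate 2. Without clone 2 replicate 2 or 3 they numbered 1732 and 2050. Hif1a passed with each of the 9 libraries left out in turn, with log2 differences of -1.33 to -0.94. Pkm was lost without clone 3 replicate 2 (adjusted p = 0.0516 by limma). Gapdh was lost without clone 3 replicate 2, clone 3 replicate 3 or control replicate 3 (adjusted p of 0.1070, 0.1040 and 0.0638 by limma), and Ldha without the same 3 libraries (0.1025, 0.1058 and 0.0883). Plod2 was lost without clone 2 replicate 2 (0.0513), clone 3 replicate 2 (0.1122), clone 3 replicate 3 (0.1351), control replicate 2 (0.0812) or control replicate 3 (0.1150). Kdm3a was lost without clone 2 replicate 2 (0.0660), any clone 3 library (0.0758 to 0.1433), control replicate 2 (0.0803) or control replicate 3 (0.1320). Eno1 was lost without clone 2 replicate 2 (0.0529), clone 2 replicate 3 (0.0501), any clone 3 library (0.0725 to 0.1161), control replicate 2 (0.0731) or control replicate 3 (0.1243). No call was lost without control replicate 1, and 5 members then rose and 4 fell (25.1% of all tested genes were called).

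Set against clone 2, the other overexpressing line, clone 3 had higher Ldha, Pkm and Pgam1 and lower Hif1a, Plod2, Adm and Eno2. Here 3 members rose and 4 fell, 17.9% of the members against 18.8% of all tested genes (650 higher and 1380 lower). Of the 17 enzymes 15 were positive, with a median log2 difference of 0.50 against 0.04 over all tested genes, of which 53.0% were positive. The 11 HIF targets were all negative, with a median of -0.35, and 2 of them passed. This comparison and the previous one share the clone 3 libraries.

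Hif1a had 57.0, 62.2 and 60.2 FPKM in clone 2, so that its log2 difference between clone 3 and clone 2 was -1.32 ± 0.20 (2.5-fold lower; adjusted p = 0.0015 by limma). Plod2 had 40.2, 31.2 and 37.1 FPKM in clone 2 (-1.21 ± 0.27, adjusted p = 0.0137 by limma). Adm, which encodes the vasodilator adrenomedullin, had 0.913, 1.46 and 0.900 FPKM in clone 3 and 2.10, 2.06 and 2.33 FPKM in clone 2 (-0.61 ± 0.18, adjusted p = 0.0419 by limma). Eno2, the neuronal enolase, fell to 1.41, 1.40 and 1.66 FPKM in clone 3, against 3.30, 3.17 and 3.33 FPKM in clone 2 (-0.78 ± 0.21, adjusted p = 0.0267 by limma), while control spanned 1.54 to 3.35 FPKM. Differences of genes as low as Adm and Eno2 are understated on the log2(FPKM + 1) scale. In none of the 4 genes did clone 3 and clone 2 overlap, and in 6 of the 39 members and 21.2% of all tested genes every clone 3 library was below every clone 2 library. Car9 had 32.9, 25.1 and 36.4 FPKM in clone 2, all above the clone 3 values given above, but did not pass (-1.08 ± 0.37, adjusted p = 0.0653 by limma).

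Ldha had 695, 461 and 656 FPKM in clone 2 (log2 difference 0.89 ± 0.20, adjusted p = 0.0148 by limma). Pkm had 977, 822 and 936 FPKM in clone 2 (0.72 ± 0.18, adjusted p = 0.0206 by limma). Pgam1, phosphoglycerate mutase, had 359, 487 and 517 FPKM in clone 3, 250, 215 and 311 FPKM in clone 2 and 309, 351 and 259 FPKM in control, and rose against clone 2 (0.81 ± 0.21, adjusted p = 0.0234 by limma). Every clone 3 library was above every clone 2 library for these 3, as for 13 of the 39 members and 23.7% of all tested genes. Gapdh (1955, 1930 and 2355 FPKM in clone 2) and Eno1 (1268, 908 and 958 FPKM in clone 2) had log2 differences of 0.59 and 0.61 that did not pass.

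The other values of clone 2 were as follows. Slc2a1 had 50.7, 49.3 and 50.2 FPKM. Its range in control was far wider through replicate 1, at 15.9 FPKM beside 56.1 and 51.1 FPKM. Aldoa had 599, 396 and 593 FPKM, Pfkl 74.3, 56.2 and 96.0 FPKM and Tpi1 228, 179 and 354 FPKM. Gpi1 had 119, 109 and 132 FPKM and Hk1 28.2, 28.9 and 37.4 FPKM, all of them below every clone 3 value. Hk2 had 31.0, 30.9 and 25.3 FPKM, partly above clone 3. Egln2 had 13.9, 15.8 and 13.7 FPKM and Kdm3a 10.0, 12.4 and 16.2 FPKM, and Kdm3a overlapped clone 3.

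With the correction for length and GC content, 3 members passed in clone 3 against clone 2 and all were lower: Car9 (-1.37, adjusted p = 0.0371 by limma), Eno2 (-1.07, adjusted p = 0.0120) and Adm (-0.81, adjusted p = 0.0154). That is 7.69% of the members, against 8.69% of all tested genes, whose split changed from 32.0% higher without the correction (40.5% with the authors' quantile-normalized values) to 48.7% higher with it. Of the 17 enzymes 13 were then positive, with a median of 0.24, and 8 of the 11 HIF targets were negative, with a median of -0.43, against 0.02 over all tested genes. Hif1a was at -0.46 (adjusted p = 0.0592 by limma), Ldha at 0.67 (0.0555), Plod2 at -0.65, Pgam1 at 0.54 and Pkm at 0.39. Without the correction, Hif1a passed with each of the 9 libraries left out. Calls over all tested genes, 2030 with every library, numbered 1181, 865 and 1847 without clone 2 replicates 1, 2 and 3. They numbered 2077, 835 and 835 without clone 3 replicates 1, 2 and 3. Plod2 was lost without clone 2 replicate 1 (0.0514), clone 3 replicate 2 (0.0613) or clone 3 replicate 3 (0.0675). Ldha was lost without clone 2 replicate 2 (0.0717), clone 3 replicate 2 (0.0699) or clone 3 replicate 3 (0.0709). Pgam1 was lost without clone 2 replicate 1 (0.0712), clone 2 replicate 2 (0.1103), clone 3 replicate 2 (0.0995) or clone 3 replicate 3 (0.1051), and Pkm without the same 4 libraries (0.0501, 0.0990, 0.0926 and 0.0825). Eno2 was lost without any clone 2 or clone 3 library (0.0576 to 0.1022). Adm kept its call in 2 of the 9 leave-one-out fits. Without control replicate 1, which enters through the shared estimate of the spread, 11 members rose and 5 fell (31.9% of all tested genes were called).

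Clone 2 against control gave no call for any member. By limma 0 of 10783 tested genes passed (0% called), 949 had an unadjusted p below 0.05, and 5 of the 39 members did. The 17 enzymes had a median log2 difference of 0.11 and the 11 HIF targets one of 0.25, and without control replicate 1 these medians were -0.04 and -0.02. The largest single differences were those of Ndrg1, a stress-induced HIF target, at 152, 185 and 119 FPKM in clone 2 and 97.8, 61.5 and 84.5 FPKM in control, and of Car9 (0.73 ± 0.37, adjusted p = 0.6281 by limma). Hif1a differed by 0.20 (95% interval -0.24 to 0.63) and Pkm by 0.10 (-0.29 to 0.50).

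The second labelling compares the codes within the same 9 libraries. Libraries of one title resembled each other, so the fit with the title as a block is given beside the fit without it. In C-26 against NTC no member passed without the block, and 0.139% of all tested genes did. By limma 5 of the 39 members and 1794 of all 10783 tested genes had an unadjusted p below 0.05. With the title as a block 4 members rose and 0 fell, 10.3% of the members against 14.1% of all tested genes (728 higher and 794 lower).

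The 4 that rose were Ldhb, Pfkm, Pfkfb4 and Egln3, none of which was called between clones. Ldhb, the heart-type lactate dehydrogenase subunit, had 26.1, 27.7 and 22.2 FPKM in the C-26 libraries of clone 3, clone 2 and control, and 12.2, 8.53 and 7.73 FPKM in the NTC libraries of the same titles. The C-20 libraries were in between, at 21.9, 15.6 and 16.1 FPKM. The log2 difference between C-26 and NTC was 1.35 (2.54-fold), with an adjusted p of 0.0042 with the block and 0.0634 without it (limma, Benjamini-Hochberg). It was 1.04 within clone 3, 1.59 within clone 2 and 1.41 within control.

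Pfkm, the muscle-type phosphofructokinase subunit, had 16.5, 15.4 and 13.5 FPKM in C-26 of clone 3, clone 2 and control, 13.3, 9.44 and 13.2 FPKM in C-20 and 10.1, 7.89 and 4.86 FPKM in NTC. Its log2 difference between C-26 and NTC was 0.95 (adjusted p = 0.0217 with the block and 0.1515 without it, by limma). Pfkfb4, a bifunctional kinase that makes the activator of phosphofructokinase, had 7.66, 5.61 and 5.41 FPKM in C-26, 5.99, 2.96 and 5.08 FPKM in C-20 and 3.85, 3.23 and 1.37 FPKM in NTC (0.97, adjusted p = 0.0294 with the block and 0.1910 without it, by limma). Egln3, the prolyl hydroxylase that is itself a HIF target, had 39.7, 46.5 and 49.7 FPKM in C-26, 39.0, 31.3 and 43.7 FPKM in C-20 and 24.1, 27.4 and 17.9 FPKM in NTC (0.95, adjusted p = 0.0194 with the block and 0.1176 without it, by limma). Every C-26 library was above every NTC library for these 4 and for no other member, 10.3% of the members against 10.8% of all tested genes.

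Each of these calls was lost with some library left out, where calls over all tested genes fell too. With the block 1522 genes were called, but 21 without clone 2 replicate 3 and 309 without control replicate 3. They numbered 190 without clone 2 replicate 1, 545 without clone 3 replicate 2 and 983 without clone 3 replicate 3. Ldhb was lost only without clone 2 replicate 3 (adjusted p = 0.0537 by limma with the block). Its log2 difference stayed at 1.21 to 1.49. Egln3 was lost without clone 2 replicate 3 (0.1436) or control replicate 3 (0.0813). Pfkm was lost without clone 2 replicate 1 (0.0617), clone 2 replicate 3 (0.1603) or control replicate 3 (0.0777). Pfkfb4 was lost without clone 2 replicate 3 (0.1727), clone 3 replicate 2 (0.0601), clone 3 replicate 3 (0.0594) or control replicate 3 (0.1034). In the same fit 2 of the 10 epithelial markers rose and 2 fell, and the summed epithelial marker level was 1289 to 1764 FPKM in C-26 and 450 to 1393 FPKM in NTC. Pdgfra, the 1 tested fibroblast marker, and Cd68, the 1 tested leukocyte marker, rose by 1.20 and 0.61 on the log2 scale, at summed levels of 4.73 to 8.1 FPKM (fibroblast list) and 7.6 to 11.9 FPKM (leukocyte list) in C-26 and of 1.48 to 3.72 and 4.73 to 6.48 FPKM in NTC. Without control replicate 1, 4 members rose and 1 fell (10% of all tested genes were called). With the block but without the 3 clone 3 libraries 1 member rose, where 303 of all 10783 tested genes were called. The part of these marker shifts in the member results was not tested.

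**Figure D5:**
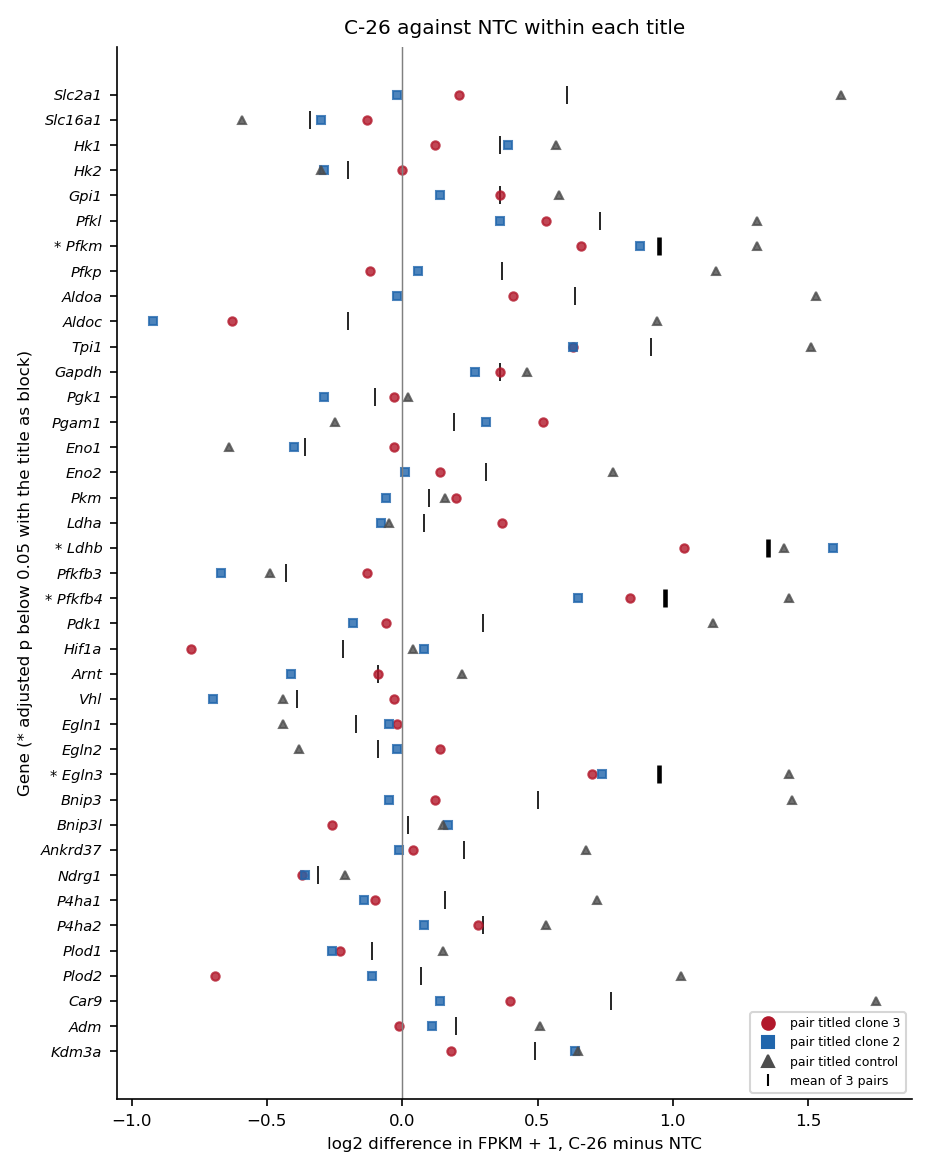
For each tested gene, the symbols give the log2 difference between the C-26 and the NTC library of one title and the bar their mean; an asterisk marks an adjusted p below 0.05 with the title as block. Ldhb is at 1.04 to 1.59 in all 3 pairs, and the control pair is the farthest right for many genes.

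Over all roles, 13 of 17 enzymes and 9 of 11 HIF targets were positive in C-26 against NTC, with medians of 0.36 and 0.20. The median over all tested genes was -0.01, and 49.1% were positive. Without control replicate 1, 10 of 17 enzymes and 7 of 11 HIF targets were positive. Their medians were then 0.09 and 0.07, against -0.04 over all tested genes. With all 9 libraries the 27 further HIF targets described below had a median of -0.13. Hif1a differed by -0.22 and Ldha by 0.08 between C-26 and NTC, and Car9 by 0.77 (adjusted p = 0.0929 with the block, by limma). For Slc2a1 the control pair differed by 1.62 log2 units and the pairs of clone 3 and clone 2 by 0.21 and -0.02. In the authors' deposited table of C-26 against NTC the fold was 2.57 for Ldhb (p = 0.0040), 2.03 for Egln3 (p = 0.0049) and 1.90 for Pfkm (p = 0.0307), and the lowest adjusted p of any gene there was 0.1890.

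In C-20 against NTC, which uses the same NTC libraries, no member passed with or without the block. By limma 0.0185% of all tested genes were called without it and 0.306% with it. An unadjusted p below 0.05 was found for 5 and 6 of the 39 members, against 834 and 2259 of all 10783 tested genes. Ldhb had a log2 difference of 0.85 (adjusted p = 0.0564 with the block, by limma), Egln3 of 0.70, Pfkm of 0.63 and Pfkfb4 of 0.60.

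The remaining genes of these pathways behaved as follows. In clone 3 against control, 2 of 11 tested genes of the rest of glycolysis and glycogen use rose and 0 fell. Of 12 genes that govern pyruvate entry into mitochondria 1 rose and 1 fell, of 13 other genes of the HIF pathway 1 rose and 1 fell, and of 27 further HIF targets 1 rose and 1 fell, set against 20.6% of all tested genes. The 3 largest of these changes were falls. Fos, an immediate early transcription factor gene, had 1.49, 0.907 and 1.5 FPKM in clone 3 and 37.9, 182 and 168 FPKM in control (-5.54, adjusted p = 1.6e-04 by limma). Tceb1, which encodes elongin C of the von Hippel-Lindau ligase, changed by -1.48 (adjusted p = 0.0030 by limma), and Dld, the dihydrolipoamide dehydrogenase shared by pyruvate dehydrogenase and related complexes, by -1.40, at 40.3, 28.8 and 18.5 FPKM in clone 3 and 109, 57.6 and 67.2 FPKM in control (adjusted p = 0.0105 by limma). With the correction for length and GC content, where 7.94% of all tested genes passed, 0 of the 11 and 0 of the 13 genes did. The call of Tceb1 thus ended. Of the 12 pyruvate genes 2 then rose and 0 fell, so that the call of Dld ended, and of the 27 further HIF targets 0 rose and 1 fell.

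In clone 3 against clone 2, where 18.8% of all tested genes passed, Fos changed by -3.21, Pgp, a phosphoglycolate phosphatase, by 1.45 and Dld by -1.36 (adjusted p of 0.0022, 0.0088 and 0.0131 by limma). Pgp had 21.3, 34.1 and 29.5 FPKM in clone 3 and 7.60, 8.83 and 12.9 FPKM in clone 2. With the correction for length and GC content Fos and Pgp still passed, and Dld did not (-0.54, adjusted p = 0.2083 by limma). In C-26 against NTC with the title as a block, 2 of the 27 further HIF targets rose and 7 fell, against 14.1% of all tested genes, and without the block none passed. Vegfa, the main angiogenic growth factor, had 9.42, 21.4 and 17.6 FPKM in C-26 of clone 3, clone 2 and control and 25.4, 41.2 and 53.1 FPKM in NTC (-1.27, adjusted p = 0.0301 with the block and 0.2350 without it, by limma). Edn1, the vasoconstrictor endothelin, had 0.195, 0.504 and 0.214 FPKM in C-26 and 2.85, 6.0 and 2.06 FPKM in NTC (-1.75, adjusted p = 0.0030 with the block and 0.0634 without it, by limma), and Stc2, a secreted glycoprotein, had 3.00, 3.99 and 3.02 FPKM in C-26 and 10.7, 13.8 and 8.65 FPKM in NTC (-1.46, adjusted p = 0.0078 with the block and 0.1300 without it, by limma). Edn1 also fell in C-20 against NTC with the block (-1.60, adjusted p = 0.0110 with the block and 0.2861 without it, by limma). As for Adm and Eno2, the differences of a gene as low as Edn1 are understated on the log2(FPKM + 1) scale.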

How the data were processed

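Poly(A)-selected RNA of 9 libraries of 4T1 cells was sequenced, and the authors deposited FPKM values per gene for each library, made with TopHat2 2.0.13, Bowtie2 2.2.3 and Cufflinks 2.2.1 on mm10, per the submitters' processing notes. Strand of counting and the annotation are not given in the sources used here. The same deposited table holds log2 values that match a quantile normalization of log2(FPKM + 1), and signed fold changes (a score rather than a ratio, since falls are negative) with p-values and adjusted p-values of the authors' own comparisons of codes.

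A gene was tested if 3 or more libraries had 1 FPKM or more; values of log2(FPKM + 1) were fitted with limma 3.58.1 (R 4.3.3, mean-variance trend, all 9 libraries in one fit), adjusted by Benjamini-Hochberg over all 10783 genes and called below 0.05. The comparisons were clone 3 against control, clone 3 against clone 2 and clone 2 against control by title, and C-26 against NTC and C-20 against NTC by code. The correction for composition fitted each library's deviations from the gene means on natural splines (4 degrees of freedom each) of log2 transcript length and GC content (GENCODE M21 and RefSeq, known for 99.4% of tested genes). The absolute depth is unknown, so no counting intervals are given. The fits were tested on simulated data, drawn independently around the gene means. Those data held no correlation between libraries, no outlying library and no composition trend, so the test does not cover these features.

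Whether the shared label pairs libraries was checked by correlating deviations from group means. Libraries of the same title correlated in all 9 pairs of codes (0.26 to 0.883), so the title is used as a block for the codes.

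The members and lists were chosen with earlier results of these data known. Values are given for every member called without or with a block, and for Hif1a, Slc2a1, Hk2, Pkm, Ldha and Car9; of the other pathway lists the 3 largest called changes per comparison are named. Alternatives were median ratio scaling, the authors' quantile-normalized values, another pseudocount, no filter, only the compared groups, the block, the composition correction (also for GC content or length alone, chosen after seeing the data) and each library left out.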

Additional observations from a re-analysis of the deposited data

How the results depend on the processing

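Members called in clone 3 against control numbered 7 in the fit reported, with median ratio scaling and with a pseudocount of 0.1. They numbered 4 (all lower) with the authors' quantile-normalized values, 0 with the length and GC correction and with GC alone, 7 with length alone, 3 without the filter, 3 with only the compared groups, and 1 (without clone 3 replicate 2) to 9 (without control replicate 1) with each library left out. In clone 3 against clone 2 they numbered 7 in the fit reported and with median ratio scaling, 6 with a pseudocount of 0.1, 2 with the quantile-normalized values, 3 with the correction, 4 with GC alone and 8 with length alone, 3 without the filter, 15 with only the compared groups, and 1 (without clone 3 replicate 2 or clone 3 replicate 3) to 16 (without control replicate 1) with each library left out. Clone 2 against control gave 0 members in all of these. All genes called went to 851 and 931 with the correction, against 2220 and 2030 without it, in clone 3 against control and clone 3 against clone 2. In the same order they were 2292 and 2117 with median ratio scaling, 2198 and 2004 with a pseudocount of 0.1, and 2212 and 2073 with the quantile-normalized values. They were 801 and 948 with GC alone, 2573 and 2215 with length alone, and 1546 and 2881 with only the compared groups. Without the filter 2045 and 1519 of 20025 genes were called. With each library left out they ranged from 1011 to 2707 and from 835 to 3443. No member changed its sign with a call under any of these settings. The cause of these differences was not tested.

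Libraries with the same code deviated together in 7 of 9 pairs across titles (0.207 to 0.562) but not in 2 pairs of C-20 libraries (-0.235 and 0.075), and 5 of 9 libraries correlated best with their own code in both other titles, so the code was not taken as a pairing. With the code as a replicate block, 14 members were called in clone 3 against control (11 higher and 3 lower; 3330 of all genes; Slc2a1, Aldoa, Pfkl, Tpi1, Gpi1, Hk1 and Egln2 were added), 12 in clone 3 against clone 2 (7 higher and 5 lower; 3176 of all genes; Pfkl, Tpi1, Eno1, Egln2 and Car9 were added) and 0 in clone 2 against control. With each library left out of that fit, the members called ranged from 1 to 15 and from 1 to 18. All genes called then ranged from 1546 to 3786 and from 1215 to 4664. With the block and the correction the members called numbered 3 and 7, where 1584 and 1895 of all genes were called. Against control these were Slc16a1 (0.70, higher), Eno2 (-0.67) and Kdm3a (-0.42, both lower). Against clone 2 Slc16a1 and Ldha were higher, and Eno2, Hif1a, Plod1, Car9 and Adm were lower. In C-26 against NTC, 0 members were called without the block under 6 of the alternatives, 1 (Ldhb) with the correction, with GC alone and with length alone, 4 with the title as a replicate block and 5 with both, and 0 (without clone 2 replicate 3) to 5 with each library left out of the blocked fit. All genes called there were 15 without the block, 100 with the correction, 27 without the filter, 2 with only the compared groups, 1522 with the block and 1875 with both. They were 88 with GC alone, 44 with length alone and 21 to 1809 with each library left out of the blocked fit. In C-20 against NTC, 1 member was called in the blocked fit without control replicate 1 (111 of all genes) and 0 under the other settings.

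The absolute depth is unknown, so counting error could not be set apart from the spread between libraries. Isoform shares are ratios within a library and do not move with scaling or filters.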
